A study of Mus musculus with 9 samples.

Results

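The 10 apolipoprotein genes Apoa1, Apoa2, Apoa4, Apob, Apoc1, Apoc2, Apoc3, Apod, Apoe and Apoh were followed across sorted thymic cells of a mouse reporter line. They were chosen by name as a set of plasma apolipoproteins, and 13 other genes with an apolipoprotein name are counted apart from them further on. The 10 members held 17 of the 45101 probe sets, and all 10 were among the 18194 genes tested. Each gene is described by its brightest probe set, the set with the highest mean log2 intensity over the 9 arrays, and the other 7 probe sets are given beside it. The members and gene lists were selected with earlier results of these arrays known.

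The study placed ZsGreen (ZsG), a green fluorescent protein, at the start codon of Tslp in a bacterial artificial chromosome and made transgenic C57BL/6 mice from it. Its 9 arrays fell into 3 groups of 3: ZsG plus, ZsG minus mTEC and ZsG minus cTEC, where mTEC and cTEC are the usual short names of medullary and cortical thymic epithelial cells. The design sets these groups against each other, and all mice were 8 to 20 weeks old. All groups carry the C57BL/6 background by their labels, and the reporter fluorescence sets the ZsG plus cells apart from both others. A transgene of this kind reports the Tslp sequences it carries and its insertion site, so its signal need not follow the endogenous gene. The labels do not say of each group whether its mice carried the transgene. The surface markers of the sort, the number of founder lines and whether animals were pooled are not given in these sources. The cell type field reads keratinocytes throughout and so departs from the sample titles, which are followed here. The cDNA came from 5 ng of RNA after amplification.

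Apolipoproteins coat lipoprotein particles, hold lipid in solution in plasma, and act as ligands for receptors and as cofactors or inhibitors of lipases. In the body most of them come from liver and small intestine, while Apoe is also made by macrophages and Apod by many tissues. Medullary thymic epithelial cells transcribe at low frequency many genes that otherwise belong to single organs, in part under Aire, so that developing T cells meet those self proteins in the thymus.

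The promoters of Apoa1 and Apoa4, neighbours whose values are set side by side, and of Apob, the member that varied most among the ZsG plus arrays, are shown as context for the values. A promoter here is the 250 bases before the annotated start, from RefSeq on the mouse build GRCm38.p6. The Apoa1 window lies on the plus strand at chr9:46228380-46228629, the Apoa4 window on the plus strand at chr9:46240594-46240843 in the same gene cluster, and the Apob window on the plus strand at chr12:7977427-7977676. Capitals mark matches to the motifs searched.
Apoa1: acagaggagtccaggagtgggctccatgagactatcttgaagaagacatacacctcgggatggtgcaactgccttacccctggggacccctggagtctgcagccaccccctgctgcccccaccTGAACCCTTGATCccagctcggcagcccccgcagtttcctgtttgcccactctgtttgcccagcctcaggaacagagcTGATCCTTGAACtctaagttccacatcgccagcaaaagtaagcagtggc
Apoa4: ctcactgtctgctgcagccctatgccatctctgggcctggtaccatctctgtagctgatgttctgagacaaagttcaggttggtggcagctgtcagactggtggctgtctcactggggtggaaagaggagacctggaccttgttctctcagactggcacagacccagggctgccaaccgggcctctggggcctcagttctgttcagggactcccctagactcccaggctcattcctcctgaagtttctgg
Apob: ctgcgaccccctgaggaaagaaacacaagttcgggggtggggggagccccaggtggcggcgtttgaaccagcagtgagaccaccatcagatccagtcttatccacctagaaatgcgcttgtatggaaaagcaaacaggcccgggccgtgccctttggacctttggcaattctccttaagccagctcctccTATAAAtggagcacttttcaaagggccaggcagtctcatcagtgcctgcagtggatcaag
The search covered both strands for TATAAA, for the nuclear receptor half-site AGGTCA, and for the loose half-site TGANC repeated after 2 bases, called direct repeat 1, or after 3 bases, called direct repeat 2. None of the matches shown overlap. These letters were chosen with the windows in view. In Apoa1 a match to direct repeat 1 begins 49 bases before the start and a match to direct repeat 2 begins 127 bases before it. The Apob window holds TATAAA, beginning 60 bases before the start, and the Apoa4 window holds none of the 4 motifs. Among 32851 promoter windows of the same length, 12.4% hold TATAAA, 14% the half-site, 1.01% direct repeat 1 and 0.889% direct repeat 2. A match is a description of letters and not a binding site. Windows were found for 8 of the 10 genes. Apoc1 and Apoc3 had no entry.

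The ZsG plus arrays varied more among themselves than the other 6, for the members as for all genes. The median SD of the 10 apolipoprotein genes on the log2 scale was 1.59 within ZsG plus, 0.37 within ZsG minus mTEC and 0.70 within ZsG minus cTEC, and over all genes it was 1.30, 0.63 and 0.61 for the same groups. Median intensity over all probe sets was 230.3 to 316 on ZsG plus arrays, 366 to 424 on ZsG minus mTEC arrays and 376 to 404 on ZsG minus cTEC arrays. For the Gapdh control probe sets the 3′ signal over the 5′ signal was 6.71 to 10.6 in ZsG plus, against 4.55 to 5.97 on the 6 other arrays, while for Actb it was 0.796 to 1.21 in ZsG plus and 0.874 to 1.14 elsewhere. Bacterial PheX and DapX control probe sets read 3.77 to 341, with a median of 45.6, and whether such RNAs were added is not given, so intensities under 341 are within the range of those controls. The median log2 difference over all genes was -0.33 for ZsG plus versus ZsG minus mTEC, -0.14 for ZsG plus versus ZsG minus cTEC and 0.09 in ZsG minus mTEC versus ZsG minus cTEC, and the members' differences are best read against these.

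The labels were set against marker genes. The summed level of 11 mTEC markers was between 119410 and 163510 for ZsG plus, between 124460 and 138530 for ZsG minus mTEC and between 39328 and 49446 for ZsG minus cTEC. Aire, Fezf2 and Hdc passed the test as higher in both ZsG plus and ZsG minus mTEC when each was set against ZsG minus cTEC. For Aire and Fezf2 these calls ended in 9 of 18 alternative settings, among them every fit without a ZsG minus mTEC or a ZsG minus cTEC array. The summed level of 8 cTEC markers was between 16400 and 27065 for ZsG plus, between 29669 and 38961 for ZsG minus mTEC and between 142200 and 186580 for ZsG minus cTEC. The cortical sort also carried more thymocyte and fibroblast transcripts. The 10 thymocyte markers had sums between 5705 and 8283 for ZsG plus, between 5588 and 10211 for ZsG minus mTEC and between 45425 and 61757 for ZsG minus cTEC. Sums of 10 fibroblast markers were between 9184 and 27146 for ZsG plus, between 10647 and 15797 for ZsG minus mTEC and between 59975 and 84519 for ZsG minus cTEC. Sums of 6 mesothelial markers were between 3784 and 17896 for ZsG plus, between 5611 and 7586 for ZsG minus mTEC and between 8839 and 17310 for ZsG minus cTEC. These overlapped between ZsG plus and ZsG minus cTEC. In ZsG plus versus ZsG minus cTEC, limma called 4 cTEC, 2 thymocyte, 2 fibroblast and 1 mesothelial marker lower and 0 of these higher. In ZsG minus mTEC versus ZsG minus cTEC it called 2, 1, 1 and 0 lower and 0 higher, and in ZsG plus versus ZsG minus mTEC 1 mesothelial marker was lower. Over all genes 1.74%, 0.627% and 0.22% were called in these comparisons, in the same order and in either direction. None of these markers was at 0. Their part in the apolipoprotein differences against ZsG minus cTEC was not tested. In bulk samples like these, fewer cells that express a gene and less RNA per cell cannot be told apart.

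Across the 10 genes the level was highest in ZsG minus mTEC for 8 and in ZsG plus for Apoa4 and Apoe, and it was lowest in ZsG minus cTEC for 9, Apoe being the exception. The summed intensity of the members was between 30186 and 36975 for ZsG plus, between 45454 and 54624 for ZsG minus mTEC and between 6949 and 14774 for ZsG minus cTEC, with no overlap between any of the groups. A few bright genes made up much of such sums. On ZsG minus mTEC replicate 1, Apoa1, Apoa4 and Apod read 11003, 10233 and 13025 of 54624. The separation of the sums therefore need not hold for each member. Differences were fitted with limma over all 18194 genes, on log2 intensity, with Benjamini-Hochberg adjustment and a threshold of 0.05. None of the 10 members passed that threshold in any of the 3 comparisons. The values below are therefore levels and differences with their errors, not called changes.

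**Figure D1:**
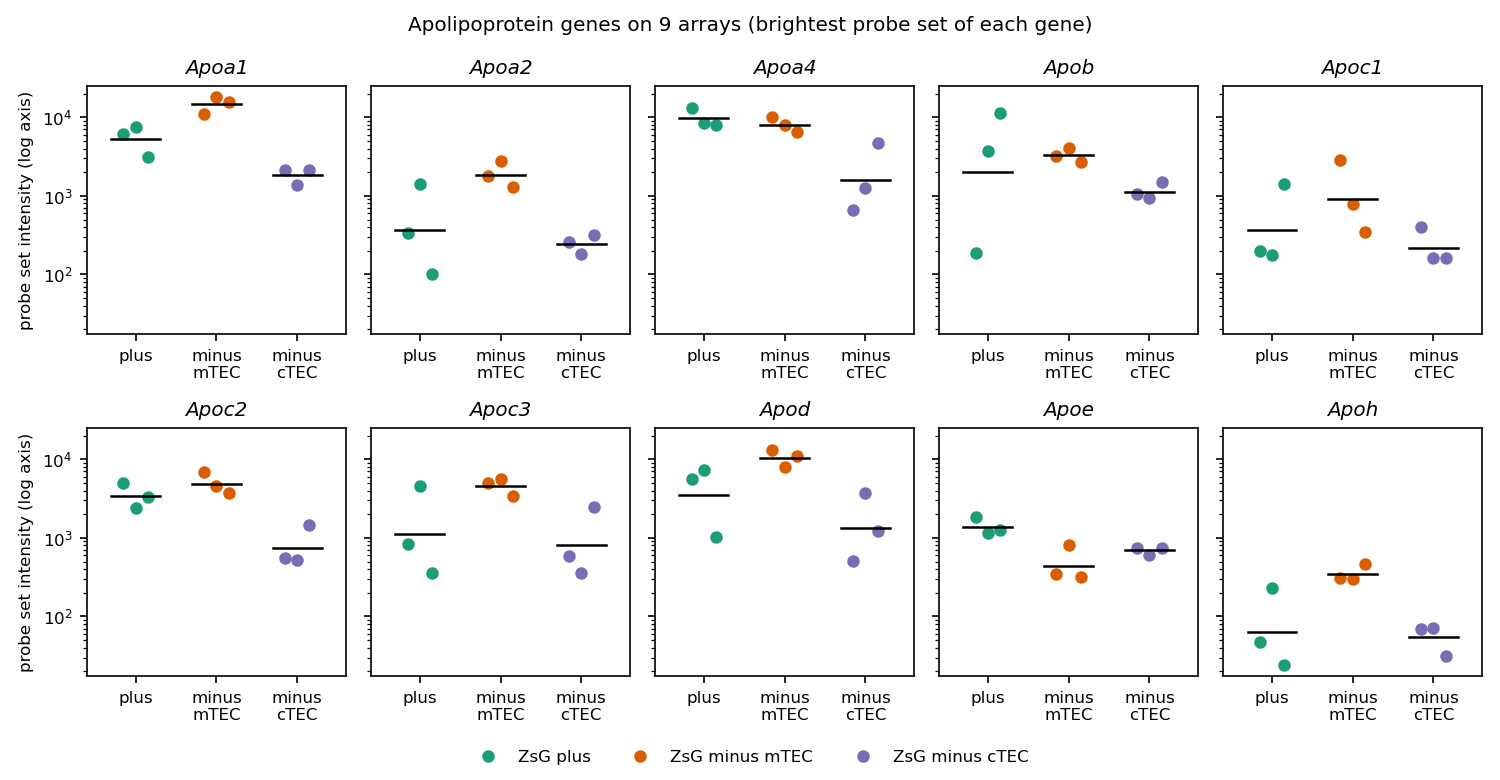
Probe set intensity (log axis) of the brightest probe set of each apolipoprotein gene on the 9 arrays, with 1 point per array and a bar at the geometric mean of the 3 arrays of a group. Apoa1 separates into 3 levels, Apoe is highest in ZsG plus, and Apob spans 188 to 11499 within ZsG plus.

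ZsG minus mTEC versus ZsG minus cTEC gave the widest differences among the members. Of the 10 genes, 0 passed the limma threshold, against 0.627% of all genes tested, and adjusted p-values ran from 0.0585 to 0.777. At an unadjusted p under 0.05, 7 were higher and 0 lower, where 8.4% of all genes were higher and 3.9% lower. In 8 genes every ZsG minus mTEC array lay above every ZsG minus cTEC array, a pattern that 16.6% of all genes showed, and in 0 genes the reverse held, as it did for 11.8% of all genes. The median difference of the members was 2.61 on the log2 scale, and 9 of 10 lay above 0, as did 53.9% of all genes.

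In ZsG plus versus ZsG minus mTEC, 2 of the 10 members lay above 0, as did 39.0% of all genes, and the median difference was -1.39. The threshold was passed by 0 of 10 in limma, against 0.22% of all genes tested, with adjusted p-values of 0.270 to 0.902. At an unadjusted p under 0.05, 3 were lower, where 10.2% of all genes were, and 1 was higher, where 3.2% were. Groups did not overlap for 3 lower genes, Apoa1, Apod and Apoh, and for 1 higher gene, Apoe. Over all genes 12.3% were lower and 5.77% higher without overlap.

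In ZsG plus versus ZsG minus cTEC, all 10 members lay above 0, as did 46.3% of all genes, with a median difference of 0.92. Again 0 of 10 passed the limma threshold, against 1.74% of all genes tested, with adjusted p-values of 0.113 to 0.893. At an unadjusted p under 0.05, 3 members were higher and 0 lower, where 7.44% of all genes were higher and 11.3% lower. Apoa1, Apoa4, Apoc2 and Apoe were higher without overlap between the groups, as were 9.9% of all genes, and 0 members were lower without overlap, as were 13.4% of all genes. The 3 comparisons share arrays pairwise, so their values for a gene are not independent.

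**Figure D2:**
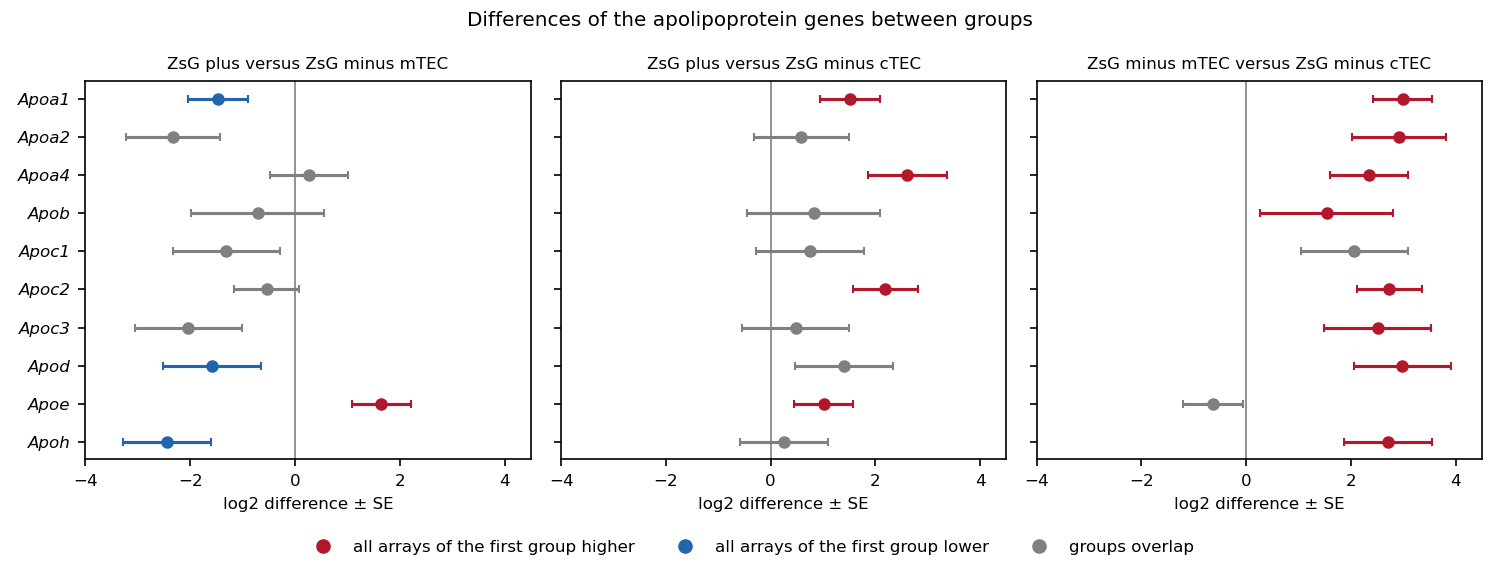
Log2 difference with its standard error (limma, 3 arrays per group) of each apolipoprotein gene in the 3 comparisons, the group named first minus the group named last. In ZsG minus mTEC versus ZsG minus cTEC 8 of the 10 genes are higher with no overlap between groups, and in ZsG plus versus ZsG minus mTEC Apoe is the 1 gene that is higher without overlap.

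Apoa1 encodes the main protein of high-density lipoprotein and activates the cholesterol-esterifying enzyme of plasma. Its intensity was 6176, 7504 and 3137 in ZsG plus, against 11003, 17987 and 15703 in ZsG minus mTEC and 2115, 1378 and 2134 in ZsG minus cTEC. The 3 groups did not overlap, with ZsG minus mTEC highest, ZsG plus between and ZsG minus cTEC lowest. ZsG plus differed from ZsG minus mTEC by -1.47 ± 0.57 (SE) and from ZsG minus cTEC by 1.52 ± 0.57 on the log2 scale, with limma adjusted p-values of 0.320 and 0.196. ZsG minus mTEC differed from ZsG minus cTEC by 2.99 ± 0.57 (limma adjusted p = 0.0585), the smallest adjusted p among the members in any of the 3 comparisons. This last difference passed the threshold in 7 of 18 alternative settings, with adjusted p-values of 0.00518 to 0.0368 in those 7 and up to 0.205 in the other 11. Among them is the fit without the ZsG plus arrays, where the difference was 2.99 (limma adjusted p = 0.0249).

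Apoa1 has 4 probe sets, and all 4 kept the order of the groups. The set described above, 1419233_x_at, belongs with 1438840_x_at and 1455201_x_at to a class whose probes can also match other transcripts. The set without that mark, 1419232_a_at, read 4294, 7876 and 5611 in ZsG plus, against 7826, 12167 and 10464 in ZsG minus mTEC and 734, 568 and 1763 in ZsG minus cTEC. On this set a ZsG plus array, 7876, lay just above the lowest ZsG minus mTEC array, 7826, so those 2 groups touched, while ZsG minus cTEC stayed below both. Its differences were -0.80 ± 0.63 for ZsG plus versus ZsG minus mTEC, 2.67 ± 0.63 for ZsG plus versus ZsG minus cTEC and 3.47 ± 0.63 in ZsG minus mTEC versus ZsG minus cTEC in the fit over all single-symbol probe sets.

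Apoa2 encodes another abundant protein of high-density lipoprotein. It read 342, 1435 and 102 in ZsG plus, against 1775, 2771 and 1299 in ZsG minus mTEC and 259, 180.3 and 317 in ZsG minus cTEC. ZsG plus replicate 2 lay inside the range of ZsG minus mTEC, and all 3 ZsG minus cTEC values and that of ZsG plus replicate 3 were within the range of the bacterial controls. The difference was -2.33 ± 0.90 for ZsG plus versus ZsG minus mTEC (limma adjusted p = 0.323). For ZsG plus versus ZsG minus cTEC it was 0.58 ± 0.90 (limma adjusted p = 0.763), and without ZsG plus replicate 2 it turned to -0.40. ZsG minus mTEC lay above ZsG minus cTEC without overlap, by 2.92 ± 0.90 (limma adjusted p = 0.202, and 0.0322 in the fit of only these 6 arrays).

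Apoa4 encodes an apolipoprotein that enterocytes secrete on chylomicrons. Its brightest set, 1436504_x_at, read 13311, 8483 and 8065 in ZsG plus, against 10233, 7971 and 6421 in ZsG minus mTEC and 662, 1275 and 4746 in ZsG minus cTEC. This set is also of the class whose probes can match other transcripts. ZsG plus and ZsG minus mTEC overlapped, and both lay above every ZsG minus cTEC array. ZsG plus differed by 0.27 ± 0.75 from ZsG minus mTEC (limma adjusted p = 0.902) and by 2.61 ± 0.75 from ZsG minus cTEC (limma adjusted p = 0.115). ZsG minus mTEC exceeded ZsG minus cTEC by 2.34 ± 0.75 (limma adjusted p = 0.219).

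The other Apoa4 probe set, 1417761_at, read 9411, 8684 and 9456 in ZsG plus, against 5327, 7249 and 6501 in ZsG minus mTEC and 449, 767 and 5743 in ZsG minus cTEC. On it every ZsG plus array lay above every ZsG minus mTEC array, while ZsG minus cTEC replicate 3 reached into the range of ZsG minus mTEC. That array was the highest of its group for Apoa1, Apoa2, Apoa4, Apob, Apoc2, Apoc3 and Apoe on their brightest sets. It also had the highest mTEC marker sum of its group, 49446, against 39328 and 40899 on the other two, and the part of this in its Apoa4 value was not tested. Without it, Apoa4 differed by 3.40 for ZsG plus versus ZsG minus cTEC and by 3.13 in ZsG minus mTEC versus ZsG minus cTEC.

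**Figure D3:**
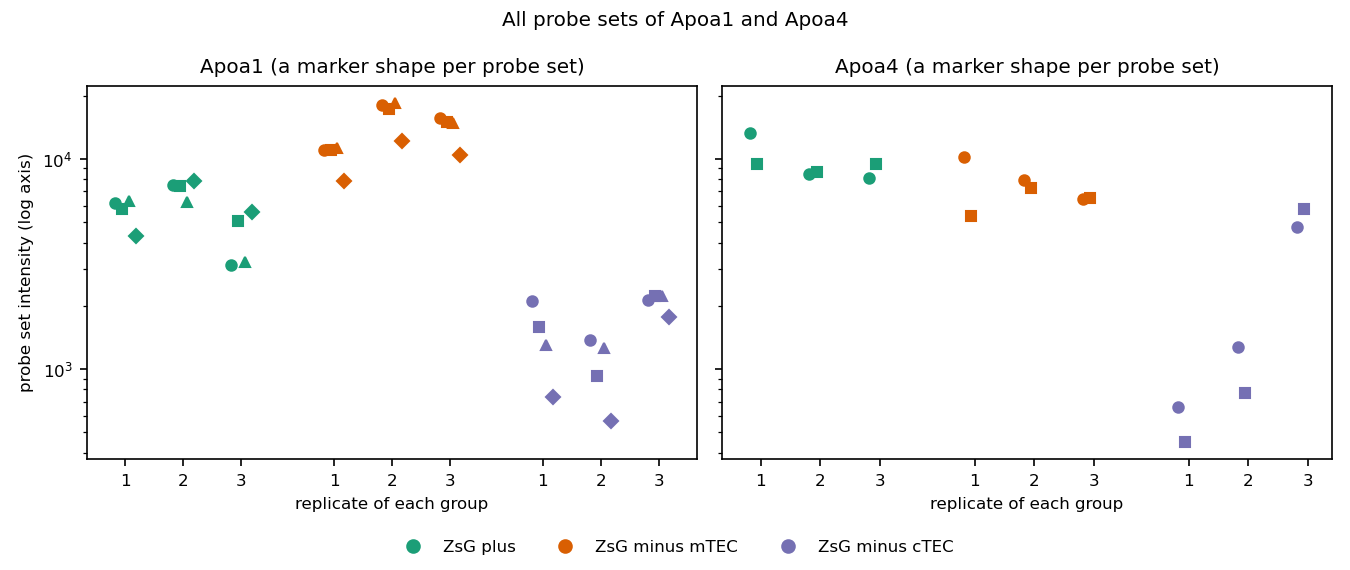
Intensity (log axis) of the 4 probe sets of Apoa1 and the 2 of Apoa4 on each array, by group and replicate number, with a marker shape for each probe set. Against ZsG minus mTEC, Apoa1 is lower in ZsG plus on every set by its group mean, Apoa4 overlaps between them on 1436504_x_at and lies higher in ZsG plus on 1417761_at, and ZsG minus cTEC replicate 3 stands above its group for Apoa4.

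Apoa1 and Apoa4 lie in the same cluster on chromosome 9, and their ratio within each array is given as a description. The pair was picked after the values were seen, so no test is given and nothing is read from the ratio. The log2 ratio of Apoa4 to Apoa1 within an array was 1.11, 0.18 and 1.36 in ZsG plus, against -0.10, -1.17 and -1.29 in ZsG minus mTEC and -1.68, -0.11 and 1.15 in ZsG minus cTEC. All ZsG plus ratios lay above all ZsG minus mTEC ratios, with a mean difference of 1.74, while ZsG minus cTEC spanned both. Over the 8 pairs of an Apoa4 with an Apoa1 probe set, the difference between ZsG plus and ZsG minus mTEC was 1.06 to 2.07. The ratios of these groups did not overlap in 7 of the 8 pairs. They overlapped for 1436504_x_at with 1419232_a_at.

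Apob encodes the large structural protein of chylomicrons and of very low and low density lipoproteins, which stays with its particle. Its brightest set, 1457554_at, read 188, 3754 and 11499 in ZsG plus, against 3241, 4045 and 2721 in ZsG minus mTEC and 1063, 929.6 and 1487 in ZsG minus cTEC. The 3 ZsG plus arrays spanned more than the other 6 together, with a log2 SD of 3.07 for ZsG plus, 0.29 for ZsG minus mTEC and 0.35 for ZsG minus cTEC. Their lowest value, 188, was within the range of the bacterial controls over all arrays, though above the highest control of its own array, 144. ZsG plus differed by -0.71 ± 1.27 from ZsG minus mTEC and by 0.82 ± 1.27 from ZsG minus cTEC, with limma adjusted p-values of 0.830 and 0.763. Each of these turned sign when 1 array was left out, to 1.00 without ZsG plus replicate 1 and to -0.44 without ZsG plus replicate 3. ZsG minus mTEC exceeded ZsG minus cTEC without overlap, by 1.53 ± 1.27 (limma adjusted p = 0.750). This error is shared by the 3 groups and so includes the wide ZsG plus spread, not only that of the groups compared.

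The other Apob set, 1455593_at, read 1941, 5122 and 1256 in ZsG plus, against 2797, 2741 and 2066 in ZsG minus mTEC and 654, 618 and 129 in ZsG minus cTEC. Here ZsG plus overlapped ZsG minus mTEC and lay above every ZsG minus cTEC array. The order of the ZsG plus arrays differed between the 2 sets: replicate 3 was the highest on the brightest set and the lowest on the other. In the fit over all single-symbol probe sets ZsG plus exceeded ZsG minus cTEC by 2.64 ± 0.82 on this set (limma adjusted p = 0.140).

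Mttp, the microsomal transfer protein that loads lipid onto Apob, was set beside it after its values were seen. It read 1033, 2457 and 4888 in ZsG plus, against 1339, 729 and 1312 in ZsG minus mTEC and 68.7, 19.8 and 574 in ZsG minus cTEC. ZsG plus and ZsG minus mTEC both lay above every ZsG minus cTEC array, and 2 of the 3 ZsG minus cTEC values were within the range of the bacterial controls. The difference was 4.65 ± 1.14 for ZsG plus versus ZsG minus cTEC (limma adjusted p = 0.0789), and Mttp did not pass in any of the 3 comparisons. Over the alternatives that difference ran from 2.78, with the mean of its probe sets, to 5.97, without ZsG minus cTEC replicate 3.

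Apoc2, the activator of lipoprotein lipase, read 4930.1, 2407 and 3287 in ZsG plus, against 6796, 4638 and 3779.6 in ZsG minus mTEC and 547, 518 and 1449 in ZsG minus cTEC. ZsG plus and ZsG minus mTEC overlapped each other, and both lay above all ZsG minus cTEC arrays. The differences were 2.19 ± 0.62 for ZsG plus versus ZsG minus cTEC (limma adjusted p = 0.113) and 2.73 ± 0.62 in ZsG minus mTEC versus ZsG minus cTEC (limma adjusted p = 0.0950). Between ZsG plus and ZsG minus mTEC the difference was -0.54 ± 0.62 (limma adjusted p = 0.726), and its sign turned, to 0.09, with arrays centred on their median.

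Apoc3 encodes an inhibitor of lipoprotein lipase and of particle uptake. It read 831, 4599 and 362 in ZsG plus, against 5054, 5540.2 and 3397 in ZsG minus mTEC and 592, 352 and 2466 in ZsG minus cTEC. ZsG plus replicate 2 was at the ZsG minus mTEC level and the other 2 ZsG plus arrays were below all ZsG minus mTEC arrays. The difference was -2.03 ± 1.02 for ZsG plus versus ZsG minus mTEC (limma adjusted p = 0.427) and 2.51 ± 1.02 in ZsG minus mTEC versus ZsG minus cTEC (limma adjusted p = 0.351). ZsG plus versus ZsG minus cTEC gave 0.48 ± 1.02 (limma adjusted p = 0.834), with a sign that turned to -0.55 without ZsG plus replicate 2 and to -0.12 without ZsG minus cTEC replicate 2.

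Apoc1, a small apolipoprotein of several particle classes, read 200.3, 178 and 1425 in ZsG plus, against 2846, 786 and 345 in ZsG minus mTEC and 397, 164 and 163 in ZsG minus cTEC. All 3 groups overlapped, and 2 arrays each of ZsG plus and ZsG minus cTEC were within the range of the bacterial controls. The differences were -1.31 ± 1.02 for ZsG plus versus ZsG minus mTEC, 0.75 ± 1.02 for ZsG plus versus ZsG minus cTEC and 2.06 ± 1.02 in ZsG minus mTEC versus ZsG minus cTEC. Their limma adjusted p-values were 0.592, 0.728 and 0.470. Without ZsG plus replicate 3 the difference from ZsG minus cTEC was -0.22.

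The 3 ZsG plus arrays did not rank alike over these genes. Replicate 2 was the highest of its group for Apoa1, Apoa2, Apoc3, Apod and Apoh, replicate 3 for Apob and Apoc1, and replicate 1 for Apoa4, Apoc2 and Apoe.

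Apoe, the ligand through which remnant particles bind receptors of the low density lipoprotein receptor family, had the opposite order between the ZsG plus and ZsG minus mTEC groups from most members. It read 1863, 1169 and 1246 in ZsG plus, against 342, 810.1 and 318 in ZsG minus mTEC and 742, 602 and 745 in ZsG minus cTEC. Every ZsG plus array lay above all 6 others, while ZsG minus mTEC and ZsG minus cTEC overlapped. The ZsG minus mTEC value of 318 was within the range of the bacterial controls over all arrays, and that of 342 was just above it. Both lay above every control of their own array, where the highest read 48.7 and 131. ZsG plus exceeded ZsG minus mTEC by 1.65 ± 0.57 (limma adjusted p = 0.274) and ZsG minus cTEC by 1.01 ± 0.57 (limma adjusted p = 0.373). ZsG minus mTEC differed from ZsG minus cTEC by -0.64 ± 0.57 (limma adjusted p = 0.777).

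Macrophages are a known source of Apoe, and their markers were read beside it. Of 14 macrophage markers, 0 passed the limma threshold in any of the 3 comparisons. Their summed level was between 44508 and 99899 for ZsG plus, between 46114 and 63101 for ZsG minus mTEC and between 17135 and 46540 for ZsG minus cTEC, and none was at 0. At an unadjusted p under 0.05, 1 was higher and 0 lower in ZsG plus versus ZsG minus mTEC, where 3.2% and 10.2% of all genes were. In ZsG plus versus ZsG minus cTEC 2 were higher and 0 lower, where 7.44% and 11.3% of all genes were. Without overlap between groups, 3 markers, Adgre1, Cd68 and Timd4, were higher in ZsG plus when set against ZsG minus mTEC and 0 were lower, where 5.77% and 12.3% of all genes were. In that comparison 9 of the 14 lay above 0 and the rest below. All ZsG minus mTEC values of Adgre1 and Timd4 were within the range of the bacterial controls. Cd68 separated narrowly, its lowest ZsG plus value being 1247 and its highest ZsG minus mTEC value 1233. Lyz2 made up much of the sums, at 35523, 19064 and 66337 of ZsG plus sums of 63051, 44508 and 99899. The part of these transcripts in the Apoe values was not tested.

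Apod encodes a lipocalin that carries small lipids and is only distantly related to the other apolipoproteins. Its brightest set, 1416371_at, read 5635, 7217 and 1038 in ZsG plus, against 13025, 7909 and 11005 in ZsG minus mTEC and 504, 3702 and 1236 in ZsG minus cTEC. ZsG minus mTEC lay above both other groups without overlap, and ZsG plus overlapped ZsG minus cTEC through its replicate 3. The differences were -1.58 ± 0.93 for ZsG plus versus ZsG minus mTEC (limma adjusted p = 0.492), 1.40 ± 0.93 for ZsG plus versus ZsG minus cTEC (limma adjusted p = 0.455) and 2.98 ± 0.93 in ZsG minus mTEC versus ZsG minus cTEC (limma adjusted p = 0.207). Without ZsG plus replicate 3 the difference from ZsG minus mTEC was -0.71 and that from ZsG minus cTEC 2.27, and the difference from ZsG minus cTEC was 0.70 without ZsG minus cTEC replicate 1 and 0.16 with the mean of the probe sets. The other Apod set, 1444564_at, read 8.94 to 304 over the 9 arrays, all within the range of the bacterial controls.

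Apoh, or beta-2-glycoprotein I, binds anionic phospholipid and is a known autoantigen. It read 47.6, 229 and 24.3 in ZsG plus, against 309.8, 299 and 466 in ZsG minus mTEC and 69.3, 71.8 and 31.6 in ZsG minus cTEC. ZsG minus mTEC was above both other groups without overlap, yet 8 of the 9 values, ZsG minus mTEC replicate 3 being the exception, were within the range of the bacterial controls. Each ZsG minus mTEC value lay above every control of its own array. The differences were -2.45 ± 0.84 for ZsG plus versus ZsG minus mTEC (limma adjusted p = 0.270), 0.25 ± 0.84 for ZsG plus versus ZsG minus cTEC (limma adjusted p = 0.893) and 2.70 ± 0.84 in ZsG minus mTEC versus ZsG minus cTEC (limma adjusted p = 0.203). The other set, 1447719_at, read 3.04 to 146.

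The gene clusters gave a local comparison. On chromosome 9 Apoa1, Apoc3, Apoa4 and Apoa5 are neighbours. Apoa5, a regulator of triglyceride level that is made in liver, read 317, 414 and 566 in ZsG plus, against 56.8, 100.9 and 293 in ZsG minus mTEC and 233, 30.2 and 257 in ZsG minus cTEC. Every ZsG plus array lay above the 6 others, while those 6 and ZsG plus replicate 1 were within the range of the bacterial controls. ZsG plus differed by 1.82 ± 0.94 from ZsG minus mTEC and by 1.79 ± 0.94 from ZsG minus cTEC, with limma adjusted p-values of 0.438 and 0.342. By group level alone, ZsG plus was below ZsG minus mTEC for Apoa1 and Apoc3 and above it for Apoa4 and Apoa5. None of these differences was called, and that of Apoa4 was 0.27 ± 0.75, so a different order within the cluster is not established. The nearest tested genes on either side, Sik3 and Zpr1, had levels of 383 and 1405 in ZsG plus, against 1332 and 979 in ZsG minus mTEC and 2385 and 1106 in ZsG minus cTEC, and neither passed in any of the 3 comparisons.

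On chromosome 7 Apoe, Apoc1, Apoc4 and Apoc2 are neighbours. Apoc4 read 45.0, 182 and 356 in ZsG plus, against 13.9, 378 and 39.9 in ZsG minus mTEC and 24.0, 19.9 and 91.9 in ZsG minus cTEC, with 7 of the 9 values within the range of the bacterial controls. An annotated read-through transcript joins Apoc4 and Apoc2, so their probe sets may share signal. Within this cluster Apoc1 and Apoc2 had their highest level in ZsG minus mTEC and Apoe its lowest there. The flanking genes Clptm1 and Tomm40 had levels of 4160 and 435 in ZsG plus, against 2371 and 495 in ZsG minus mTEC and 1261 and 785 in ZsG minus cTEC, and neither passed in any of the 3 comparisons.

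The pattern over the 9 arrays was also set against all other genes for the 3 members with the highest mean intensity. These correlations describe 9 points that share arrays and scaling, and say nothing of function. For Apoa1, Pearson's r was highest with Gm11544 (0.983), S100g (0.976) and Dio1 (0.976). For Apoa4 it was highest with Erv3 (0.977), Klk1b1 (0.966) and Tlx2 (0.964), and for Apod with Igfbp1 (0.976), Cntn1 (0.959) and Sbk1 (0.956). Among the members, r with Apoa1 was 0.867 for Apoa2, 0.827 for Apoc2 and 0.679 for Apoa4, and -0.24 for Apoe. Apoa4 was closest to Apoc2, at 0.932.

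The other genes listed by an apolipoprotein name did not share the members' pattern of medians. They were grouped by name, and not all of them need act on lipoproteins. Of 13 measured, 1 passed the limma threshold in ZsG minus mTEC versus ZsG minus cTEC, where 0.627% of all genes did. It was Apol11b, which was higher by 5.06 ± 0.78 (limma adjusted p = 0.0387), a call that ended in 8 of 18 alternative settings, with adjusted p-values of up to 0.153. Its level for ZsG plus was 1345, for ZsG minus mTEC 4820.4 and for ZsG minus cTEC 144, and the 3 ZsG minus cTEC values, 113, 209.6 and 126, were within the range of the bacterial controls. None of the 13 passed in ZsG plus versus ZsG minus mTEC or in ZsG plus versus ZsG minus cTEC. At an unadjusted p under 0.05, 1 was higher and 2 lower in the first, where 3.2% and 10.2% of all genes were. In the second 2 were higher and 1 lower, where 7.44% and 11.3% of all genes were. For ZsG plus versus ZsG minus cTEC, Apol11b passed in 4 of 18 alternative settings and Clu in 1. Their median difference was 0.38, 0.67 and 0.17 in ZsG plus versus ZsG minus mTEC, ZsG plus versus ZsG minus cTEC and ZsG minus mTEC versus ZsG minus cTEC. Most of the 13 had levels within the range of the bacterial controls in both ZsG minus groups. Their medians therefore rest largely on dim signals and are a weak comparison for the members. Clu, or apolipoprotein J, a secreted chaperone, read 41657, 17521 and 31395 in ZsG plus, against 17139, 26507 and 22668 in ZsG minus mTEC and 8056, 9689 and 9836 in ZsG minus cTEC. ZsG minus cTEC was the lowest for Clu without overlap, and the difference was 1.63 ± 0.54 for ZsG plus versus ZsG minus cTEC (limma adjusted p = 0.158).

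Genes that act on lipoproteins were counted by role. Of 13 receptor and uptake genes, 0 passed the limma threshold in any of the 3 comparisons. At an unadjusted p under 0.05, 1 was higher and 1 lower in ZsG plus versus ZsG minus mTEC, where 3.2% and 10.2% of all genes were. In ZsG plus versus ZsG minus cTEC 2 were higher and 3 lower, where 7.44% and 11.3% of all genes were. In ZsG minus mTEC versus ZsG minus cTEC 1 was higher and 0 lower, where 8.4% and 3.9% of all genes were. Of 12 assembly and lipid transfer genes, 1 passed, Pltp, the phospholipid transfer protein that remodels high-density lipoprotein. Pltp read 3709, 5668 and 4584 in ZsG plus, against 23725, 13000 and 8836 in ZsG minus mTEC and 46978, 34678 and 47176 in ZsG minus cTEC. Against ZsG minus cTEC, Pltp was lower in ZsG plus, with a log2 difference of -3.21 ± 0.56 (limma adjusted p = 0.0354). In that comparison 1.74% of all genes passed. The 3 groups did not overlap, with ZsG plus lowest and ZsG minus cTEC highest. This call was lost in 10 of 18 alternative settings, among them every fit that left out a ZsG minus mTEC or a ZsG minus cTEC array, with adjusted p-values of up to 0.146.

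Of 5 lipases and their regulators, Lipg, endothelial lipase, passed in ZsG minus mTEC versus ZsG minus cTEC, where 0.627% of all genes did. It was higher by 3.68 ± 0.65 (limma adjusted p = 0.0491), a call that ended in 10 of 18 alternative settings, with adjusted p-values of up to 0.186. Lipg read 146, 67.8 and 244 in ZsG plus, against 2413, 1257 and 1743 in ZsG minus mTEC and 202, 129.7 and 95.2 in ZsG minus cTEC. ZsG minus mTEC stood above both other groups, whose values were all within the range of the bacterial controls. ZsG plus versus ZsG minus mTEC gave -3.70 (limma adjusted p = 0.0747), which passed in 4 of 18 alternative settings, with adjusted p-values of 0.0232 to 0.0487 in those 4. Of 12 transcription factors known to act on apolipoprotein genes, 0 passed in any of the 3 comparisons. At an unadjusted p under 0.05 there were 1 higher and 2 lower in ZsG plus versus ZsG minus mTEC, 0 and 0 in ZsG plus versus ZsG minus cTEC, and 1 and 0 in ZsG minus mTEC versus ZsG minus cTEC. The shares of all genes, in the same order, were 3.2% and 10.2%, 7.44% and 11.3%, and 8.4% and 3.9%.

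Liver plasma proteins other than apolipoproteins had medians close to those of the members. Of 16 measured, 0 passed the limma threshold in any of the 3 comparisons. Their median difference was -1.31 in ZsG plus versus ZsG minus mTEC, 1.07 in ZsG plus versus ZsG minus cTEC and 2.32 in ZsG minus mTEC versus ZsG minus cTEC. In the last of these, 10 were higher and 0 lower at an unadjusted p under 0.05, where 8.4% and 3.9% of all genes were. Without overlap 12 were higher and 1 lower, where 16.6% and 11.8% of all genes were. All of the 16 but Ttr had ZsG minus cTEC levels within the range of the bacterial controls, so differences from that group rest on dim signals. Of 9 enterocyte genes, Fabp2, the intestinal fatty acid binding protein, passed as higher in both ZsG plus and ZsG minus mTEC when each was set against ZsG minus cTEC, in all but 9 and 7 of 18 alternative settings. Over all genes 1.74% and 0.627% passed in these comparisons. The medians of the 9 were -0.70, 0.98 and 1.51 in the 3 comparisons in the same order.

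**Figure D4:**
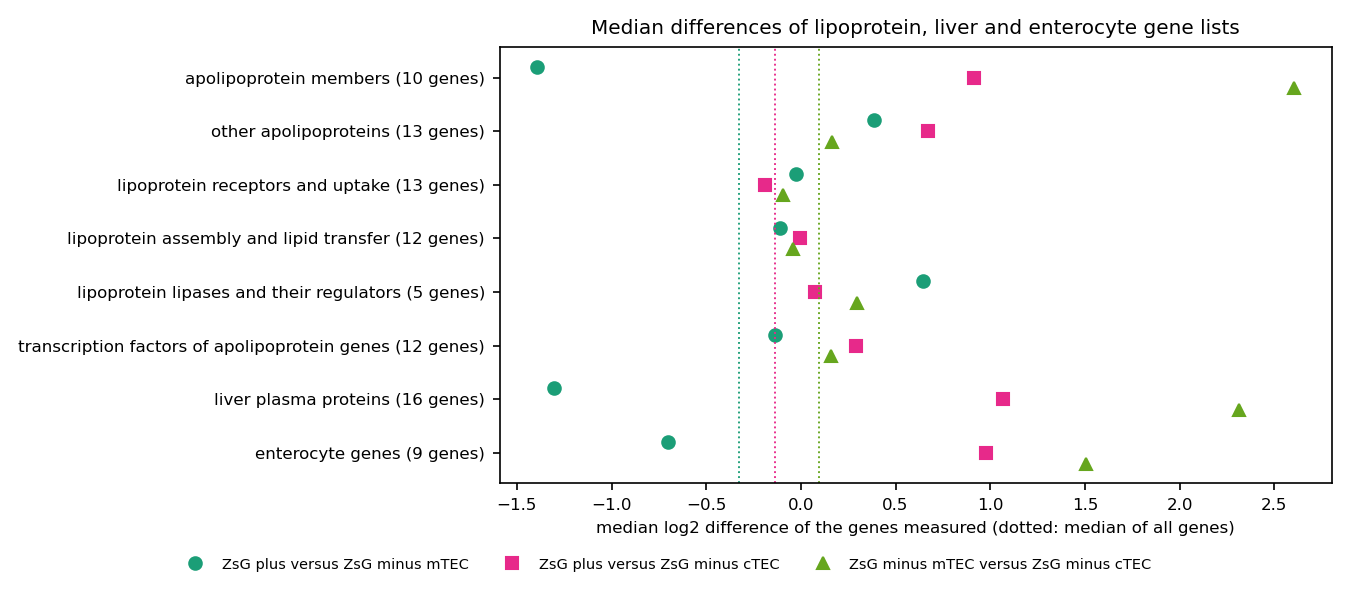
Median log2 difference of the measured genes of each list in the 3 comparisons, with dotted lines at the median of all genes in each. The apolipoprotein genes and the liver plasma proteins lie apart from those lines, at -1.39 and -1.31 in ZsG plus versus ZsG minus mTEC and at 2.61 and 2.32 in ZsG minus mTEC versus ZsG minus cTEC, while receptors, assembly genes and transcription factors lie near them.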

How the data were processed

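RNA of 9 samples was measured on Affymetrix mouse arrays, and the authors deposited linear intensities, 1 value per probe set and array. Which software made them is not given in these sources. When 2% of the values were trimmed from either end, every array had a mean of 1250, a common scaling. No detection calls were used, and precision is limited by the number of arrays.

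Values were analysed as log2 intensity without an offset. Of 45101 probe sets, 34958 had 1 gene symbol in the platform annotation, 932 several and 9211 none, and 34754 matched the RefSeq gene table. The set with the highest mean over the 9 arrays stood for each of 18194 genes. Groups were fitted with limma 3.58.1 (lmFit, eBayes) in R 4.3.3 over all 9 arrays, with 6 residual and 3.28 prior degrees of freedom, two-sided, Benjamini-Hochberg over all genes, threshold 0.05. Errors after ± are standard errors from this fit, and levels are geometric means. The labels do not tie replicates to separate animals, so the p-values reflect the spread among these samples only, which may be technical. The procedure was tested on simulated data. Figures used Python 3.11.15 and matplotlib 3.10.9.

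The members and all lists were chosen with earlier results of these data known. The rule for named genes allowed the 10 members, of each list those past the threshold and up to 2 of the brightest others, the 3 genes most like each of 3 members, and the genes flanking the clusters. Not every gene it allowed is named: most marker lists are given by sums and counts. Mttp, Apoa5, Apoc4, Adgre1, Cd68, Timd4 and Lyz2 were added after their values were seen. List genes with no matched probe set were not analysed here.

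Alternatives changed the probe set choice, filter, normalization, centring, floor of 100, arrays in the fit, array weights and replicate block, or left out each array.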

Additional observations from a re-analysis of the deposited data

How the results depend on the processing

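None of the 10 members passed the threshold in any alternative for ZsG plus versus ZsG minus mTEC or ZsG plus versus ZsG minus cTEC. In ZsG minus mTEC versus ZsG minus cTEC, 0 passed, but 1 did with the mean of a gene's probe sets, the filter or quantile normalization, 2 with a floor of 100, 3 with only the 6 arrays compared, 6 with array weights, and 0 to 1 when an array was left out. Genes past the threshold over the whole array numbered 40 in ZsG plus versus ZsG minus mTEC, against 82 probe sets with all sets tested, 3 with centred arrays, 202 with the floor, 0 with quantile normalization, only 6 arrays or array weights (2521, 1785 and 1705 at an unadjusted p under 0.05), and 0 to 230 without 1 array. Of the 40 calls 7.5% were higher, but 33.3% of the 3 with centred arrays. In ZsG plus versus ZsG minus cTEC the 317 became 536 probe sets, 496 with mean probe sets, 556 with the filter, 862 with the floor, 0 with 6 arrays (2704 unadjusted), 37 with weights, and 0 to 735 without 1 array. Of the calls 34.4% were higher, but 57.7% with quantile normalization, 58.3% with centred arrays, 23.1% with all probe sets and 16.2% with weights. In ZsG minus mTEC versus ZsG minus cTEC the 114 became 43 probe sets, 216 with mean probe sets, 191 with the filter, 176 with quantile normalization, 48 with centred arrays, 425 with the floor, 548 with 6 arrays, 1220 with weights, and 0 to 304 without 1 array. Higher calls were 84.2% of these, but 72.5% with the floor, 72.1% with 6 arrays and 72.0% with weights. The causes were not tested.

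Same-numbered arrays did not deviate together (r of -0.015 to 0.0132), and not every array correlated best with its own number, so no pairing by number was seen. Such correlations cannot tell whether same-numbered samples shared mice or a day, and no label says so. With the replicate block the limma calls were 0, 16 and 0 in the 3 comparisons (2320, 3278 and 2172 at an unadjusted p under 0.05), with 18.8% of the 16 higher, and 0 members were called.

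Signs turned for several small differences. In ZsG plus versus ZsG minus mTEC these were Apoc2 (0.089, centred), Aire (0.40, centred), Fezf2 (-0.016 with quantile normalization) and, over the fits without 1 array, Apob (-1.97 to 1.00) and Fezf2 (-0.0013 to 0.51). In ZsG plus versus ZsG minus cTEC, Lipg turned with quantile normalization (0.59), centring (0.44) and the floor (0.15). Without 1 array the range in that comparison was -0.40 to 1.51 for Apoa2, -0.44 to 2.53 for Apob, -0.22 to 1.28 for Apoc1, -0.55 to 1.29 for Apoc3, -0.67 to 0.95 for Apoh and -0.45 to 0.48 for Lipg. In ZsG minus mTEC versus ZsG minus cTEC Apoa5 turned to 0.12 with weights and ranged from -1.04 to 0.50 without 1 array. Apoh and Apoa5 fell below the filter and had no value there. The calls of Apol11b, Pltp, Lipg, Fabp2, Aire and Fezf2 were lost in 7 to 10 of 18 alternatives, among them the replicate block. Dim signals limit Apoa2, Apoh, Apoc1, Apoc4 and Apoa5, which had values within the range of the bacterial controls. So did Apob in ZsG plus replicate 1 and Apoe in ZsG minus mTEC replicate 3, on their brightest sets, though both lay above the controls of their own array.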
